A study of Mus musculus with 6 samples.

Results

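Most Zfp genes with a 3-digit number encode zinc finger proteins, and 259 genes with such symbols were covered in all 6 embryonic kidney libraries. They were chosen by symbol (Zfp followed by 3 digits) and by a value above the column minimum in every library, out of 286 such symbols and 23219 gene symbols in all. RNA was measured by sequencing in whole mouse kidneys at embryonic day 17, with ribosomal RNA depleted. Control kidneys (3, numbered 5, 7 and 11 by the labels) had the genotype Mta2flx/flx and mutant kidneys (3, numbered 6, 8 and 9) Six2Cre Mta2flx/flx, so both groups carried floxed Mta2 alleles and only the mutants carried Cre. Mta2 is a subunit of NuRD, a nucleosome remodelling and histone deacetylase complex, and Six2 drives Cre in nephron progenitors, so stroma, endothelium and collecting duct in these kidneys lie outside the targeted lineage. In whole kidneys, fewer cells of a type and less RNA per cell cannot be told apart, nor can loss of Mta2 and the presence of the Cre transgene.

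Most Zfp genes encode proteins with arrays of C2H2 zinc fingers, each a short loop that holds a zinc ion and reads a few bases of DNA. Many carry a KRAB domain at the amino end, which binds the corepressor TRIM28 (KAP1). TRIM28 in turn brings SETDB1, the enzyme that writes the H3K9 trimethyl mark, HP1 proteins and the CHD3 subunit of NuRD, and so silences transposable elements and some imprinted genes. Many of the genes lie in clusters of tandem copies. Other members have no KRAB domain and act as activators, developmental regulators, RNA-binding proteins or ubiquitin and SUMO ligases.

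Summed coverage, in which a base counts each time it was covered, came to 794 to 1235 megabases per library. Levels are given as BPM, the covered bases of a gene in a library divided by that library's total and multiplied by 1e+06, without division by transcript length. One BPM is 794 to 1235 covered bases, and the number of reads is unknown, which leaves counting error without an interval. Members held 1.01% to 1.30% of all covered bases, with the lowest share in control 11. That library also had 2.30% of its bases on Lars2, against 0.0739% to 0.482% in the other 5 libraries. The labels do not say whether each kidney had its own embryo or litter, so every p-value rests on a sample-to-sample spread that may be technical. Mta2 stood at 220, 198 and 210 BPM in controls 5, 7 and 11 and at 140, 189 and 146 BPM in mutants 6, 8 and 9, below all controls in every mutant (log2 difference -0.41, limma adjusted p = 0.887). All 36 marker genes listed for nephron progenitors, proximal tubule, podocytes and collecting duct were covered in every library.

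Levels differed widely among the members. Per kilobase of exons the 254 members whose symbol has an annotated gene model ranged from 0.378 to 62.9 BPM, with a median of 5.57. Zfp266, whose protein has a KRAB-like motif, was highest at 62.9 ± 8.72 BPM per kilobase (SD over 6 kidneys). Zfp146, which consists almost wholly of fingers, followed by a step larger than the SD of either, at 51.3 ± 7.30. Zfp207, which encodes the spindle assembly factor BuGZ, stood at 41.2 ± 6.44 and Zfp422 at 41.2 ± 6.85, and these neighbours differed by less than their spread. Zfp664 (34.3 ± 4.82) and Zfp704 (33.7 ± 4.77) came next, also closer to each other than their spread. In all 6 of these genes the control and mutant kidneys overlapped, with log2 differences between -0.08 (Zfp704) and 0.15 (Zfp664). Over all genes tested only 6.10% were higher and 5.12% lower in mutant kidneys with no overlap.

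**Figure D1:**
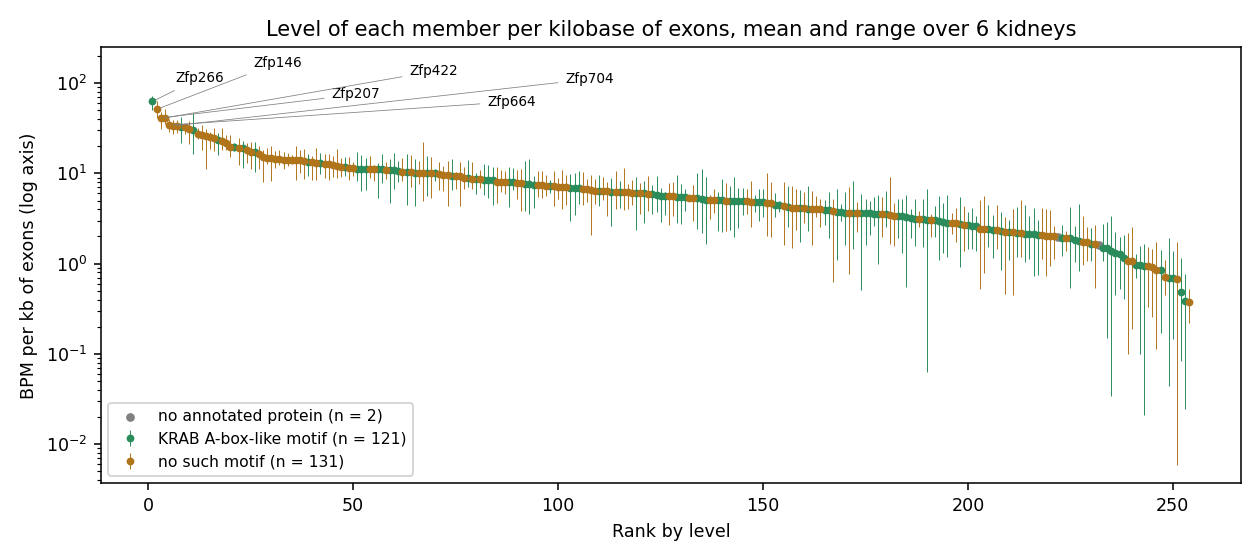
Level of the 254 annotated members in BPM per kilobase of exons (log axis), ranked, with points for the mean and bars for the range over the 6 kidneys, coloured by the presence of a KRAB A-box-like motif. Levels run from 0.378 to 62.9, Zfp266 is highest, and both classes are spread along the whole order.

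At the edge of the rule, members just inside had a library with almost no coverage. Zfp653 read 0.0290, 3.64 and 3.88 BPM in controls 5, 7 and 11 and 0.375, 8.55 and 3.54 BPM in mutants 6, 8 and 9. Zfp879 read 0.0504, 3.98 and 1.53 BPM in the controls and 0.840, 3.57 and 3.76 BPM in the mutants. Just outside, Zfp791 had 0 in mutant 8 and 25.7 BPM in mutant 9, Zfp365 had 0 in mutant 8, and Zfp300 had 0 in control 5 and 10.96, 9.38 and 3.82 BPM in mutants 6, 8 and 9. Of the 27 symbols that the rule left out, 6 were covered in no library and 21 in 1 to 5. All 259 members passed the filter of the test (at least 1 BPM in at least 3 libraries), and 0 of them passed it through 1 group alone.

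No member passed the test of mutant against control. Limma called 0 of 259 members at an adjusted p of 0.05, and the smallest adjusted p was 0.571 (Zfp235). Over all 13977 genes tested it called 0 (0%). At an unadjusted p below 0.05, 12 members were higher and 3 lower in mutant kidneys, or 4.63% and 1.16% of the members, against 2.90% and 2.70% of all genes. Members whose groups did not overlap numbered 25 higher (9.65%) and 8 lower (3.09%), against 6.10% and 5.12% of all genes. In the authors' deposited table, whose p-values are unadjusted, 10 members were higher and 2 lower at a p below 0.05, against 2.84% and 2.35% of the tested genes.

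As a group the members lay slightly above 0, less so without control 11. The median log2 difference (mutant minus control, on log2 of BPM + 1) was 0.13 over the 259 members, with 173 of them (66.8%) above 0. All genes tested had a median of 0.02, with 52.6% above 0. Without control 11 the members' median was 0.03 with 138 of 259 (53.3%) above 0, against a median of -0.01 and 49.2% for all genes. Without control 7 the median was 0.23. Without control 11 the members with no overlap numbered 30 higher (11.6%) and 29 lower (11.2%), against 10.1% and 11.1% of all genes. At an unadjusted p below 0.05 there were then 12 higher and 5 lower (4.63% and 1.93%), against 2.82% and 2.93% of all genes. The members were chosen with earlier results known, so no test was made of the group as a whole.

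**Figure D2:**
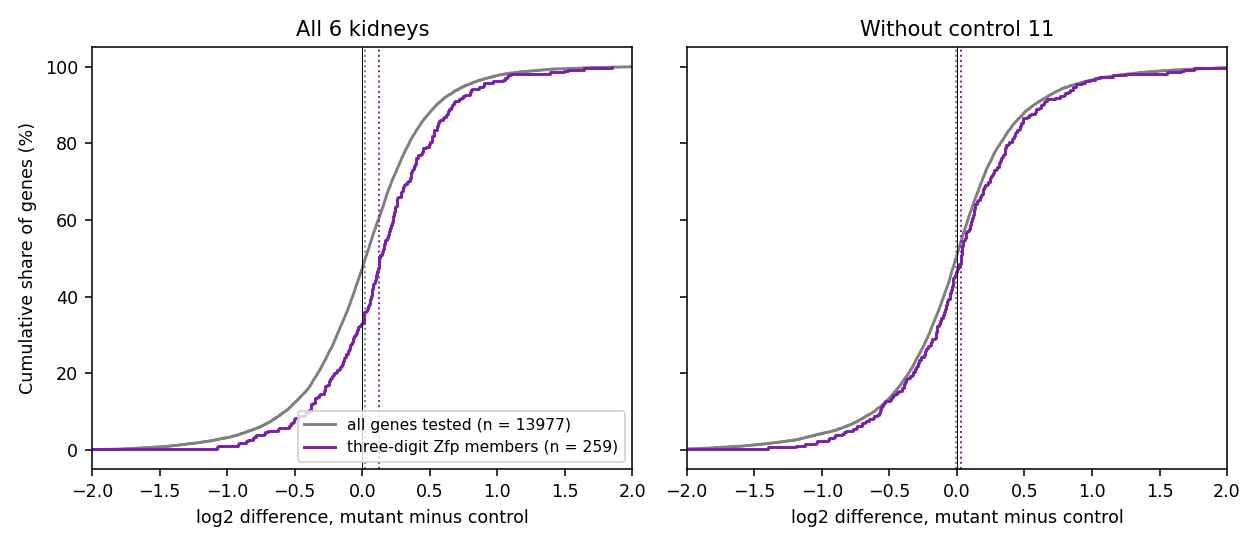
Cumulative share of genes (%) against the log2 difference, mutant minus control, for the 259 members and the 13977 genes tested, with all 6 kidneys (left) and without control 11 (right). Dotted lines mark the medians, 0.13 against 0.02 on the left and 0.03 against -0.01 on the right.

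The members' levels also differed between kidneys of one group. Relative to the control mean, the median log2 level of the members was 0.08 in control 5, 0.17 in control 7 and -0.21 in control 11. It was 0.18, 0.14 and 0.18 in mutants 6, 8 and 9, so controls 5 and 7 lay near the mutants and control 11 lay below all of them. Control 11 was the lowest of the 6 kidneys for 97 members (37.5%), against 24.0% of all genes, and the highest for 17 (6.56%), against 16.4%. Zfp symbols with 1 or 2 digits (46 tested) had a median difference of 0.09, or 0.03 without control 11, and those with a number and a letter (20 tested) 0.06 or -0.11. Zscan and Zkscan genes (20) stood at -0.03 or -0.07 and Zbtb genes (40) at 0.02 or -0.06, and none of these families was tested against the members.

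**Figure D3:**
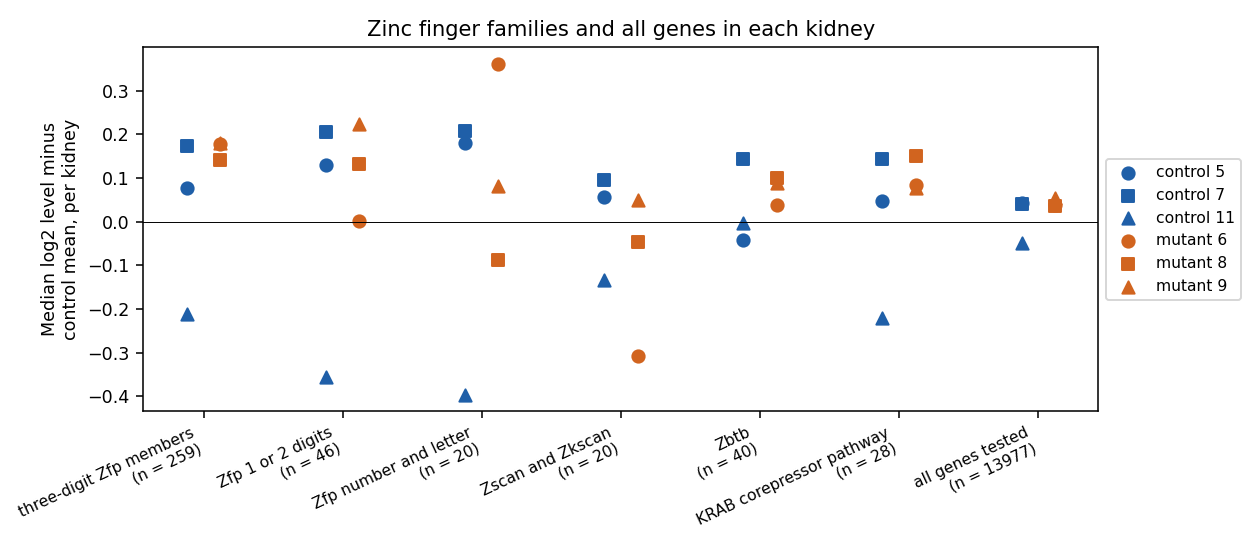
Median log2 level of each gene set in each kidney, relative to the mean of the control kidneys, for the members, 4 other zinc finger families, the KRAB corepressor list and all genes tested. For the members, control 11 lies at -0.21 and the other 5 kidneys between 0.08 and 0.18.

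Transcripts of the members were poorer in G and C than those of other genes, and control 11 was low for such transcripts in general. The longest annotated transcript had a median GC content of 45.1% in 254 members and 49.7% over 13161 genes with a value. Of the members 143 fell in the lowest tercile of GC content, below 46.7%. There the log2 level in control 11 minus the mean of controls 5 and 7 had a median of -0.53 for members and -0.36 for all genes, and in the highest tercile 0.09 and 0.21. The median mutant minus control difference in the lowest tercile was 0.23 for members and 0.11 for all genes with all 6 kidneys, and 0.03 and -0.01 without control 11. By exon length, from the shortest to the longest tercile, the median of control 11 minus controls 5 and 7 was -0.18, -0.38 and -0.30 for members. For all genes it was 0.07, -0.02 and -0.24. The part that base content, length or RNA quality has in the members' levels was not tested.

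The members higher in mutant kidneys with the smallest p were Zfp235, Zfp105, Zfp281, Zfp458, Zfp711, Zfp947, Zfp277 and Zfp367. In each of the 8 all mutants lay above all controls, which the choice by smallest p favours. An exact two-sided permutation test over the 6 kidneys gave p = 0.1 for each, the smallest value that 3 against 3 allow.

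Zfp105 (chromosome 9, 122923072 to 122931028, plus strand, mm10), a C2H2 gene best known from testis, had the tightest groups. It read 18.2, 22.2 and 17.98 BPM in controls 5, 7 and 11 and 40.4, 39.1 and 42.98 BPM in mutants 6, 8 and 9. The controls lay close together and the mutants well above them. The log2 difference was 1.04 (SE 0.35, 95% interval 0.33 to 1.75; limma unadjusted p = 0.00526, adjusted p = 0.730), and 0.99 without control 11. In the authors' deposited table its ratio of mutant to control was 2.10 with an unadjusted p of 2.75e-04. Of the 8 genes higher with the smallest limma p, 3 (Zfp105, Zfp281 and Zfp947) had a p below 0.05 in the authors' deposited table, and the other 5 had p-values from 0.0506 (Zfp711) to 0.110 (Zfp367). Its 524 residues held 11 fingers and no KRAB-like motif.

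Zfp281 (chromosome 1, 136624901 to 136630053, plus strand) encodes a pluripotency regulator of embryonic stem cells that is known to bind NuRD subunits. It read 49.2, 73.7 and 41.2 BPM in controls 5, 7 and 11 and 87.3, 86.9 and 98.4 BPM in mutants 6, 8 and 9. Every mutant exceeded the highest control, which was control 7, and the controls spread more widely than the mutants. The log2 difference was 0.76 (SE 0.27, 95% interval 0.22 to 1.31; limma unadjusted p = 0.00760, adjusted p = 0.769), and 0.58 without control 11. Zfp148 (log2 difference 0.47, adjusted p = 0.863), which encodes a GC-box binding protein known as ZBP-89 with fingers like those of Zfp281, read 130.2, 211 and 162 BPM in the controls and 218, 254 and 216 BPM in the mutants. Its control 7 came close to the mutants without overlapping them, and its difference was 0.30 without control 5.

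Zfp235 (chromosome 7, 24134169 to 24143241, plus strand) belongs to a tandem cluster on chromosome 7. It read 4.58, 17.02 and 12.3 BPM in controls 5, 7 and 11 and 43.1, 17.4 and 38.05 BPM in mutants 6, 8 and 9. Control 7 and mutant 8 were almost equal, and the separation came from mutants 6 and 9. The log2 difference was 1.52 (SE 0.47, 95% interval 0.58 to 2.47; limma unadjusted p = 0.00241, adjusted p = 0.571). Without control 5 it was 1.03 and without mutant 8 it was 1.91.

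Zfp458 (chromosome 13, 67254918 to 67278466, minus strand), a KRAB gene with 21 fingers, read 10.5, 9.35 and 4.35 BPM in controls 5, 7 and 11 and 34.7, 20.6 and 13.9 BPM in mutants 6, 8 and 9. Its mutants spread from 13.9 to 34.7 BPM. Zfp711 (chromosome X, 112600526 to 112635070, plus strand), an X-linked gene whose human counterpart is mutated in intellectual disability, read 18.99, 19.3 and 10.98 BPM in controls 5, 7 and 11 and 44.95, 39.5 and 23.3 BPM in mutants 6, 8 and 9. Zfp277 (chromosome 12, 40315046 to 40445902, minus strand) read 17.8, 21.9 and 18.1 BPM in controls 5, 7 and 11 and 54.2, 27.00 and 33.5 BPM in mutants 6, 8 and 9. In these 3 genes the mutants spread over more BPM than the controls, and the log2 differences were 1.39, 1.07 and 0.90 (limma adjusted p = 0.769 to 0.854). Without both control 11 and mutant 6 they were 0.72, 0.64 and 0.58.

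Zfp367 (chromosome 13, 64133018 to 64153202, minus strand), which encodes a small protein with 2 fingers, read 22.02, 21.7 and 28.3 BPM in controls 5, 7 and 11 and 39.99, 62.9 and 30.2 BPM in mutants 6, 8 and 9. Mutant 8 was highest and mutant 9 only just above control 11, for a log2 difference of 0.80 (0.53 without mutant 8). An antisense gene model overlaps its exons, and whether the counting used strand is not given in the sources used here. Zfp947 (chromosome 17, 22144359 to 22166190, minus strand), a KRAB gene with 9 fingers, was barely covered in controls. It read 1.57, 0.0980 and 2.10 BPM in controls 5, 7 and 11 and 9.60, 4.88 and 5.57 BPM in mutants 6, 8 and 9, and its log2 difference of 1.85 came to 2.85 with a pseudocount of 0.1.

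**Figure D4:**
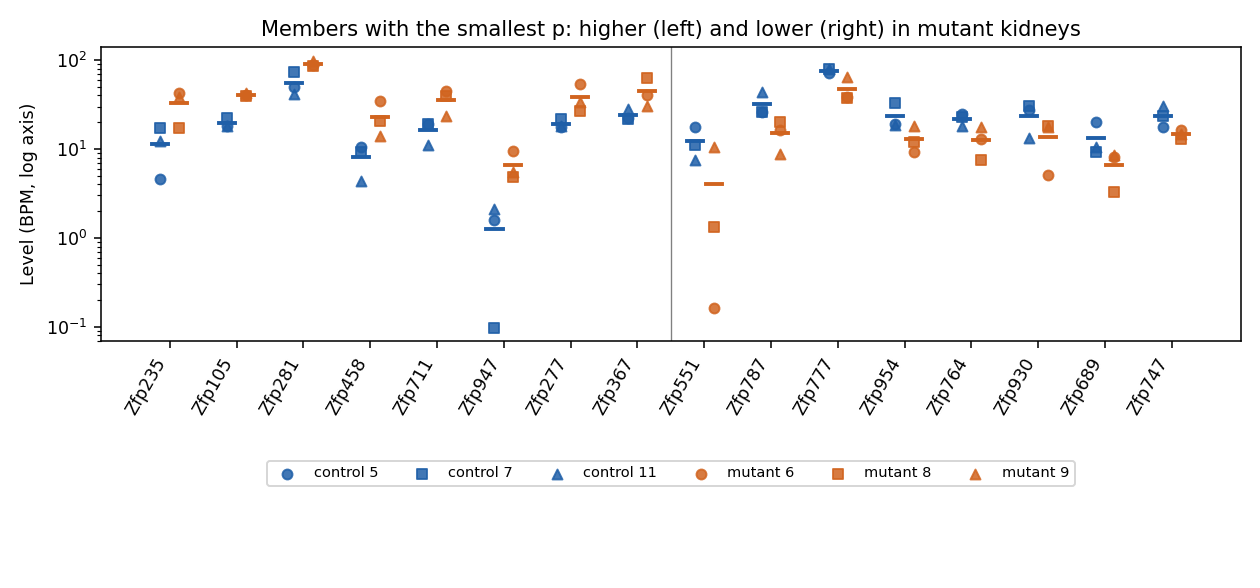
Level (BPM, log axis) in each kidney for the 8 members of smallest p that were higher (left) and the 8 that were lower (right) in mutant than control kidneys, with bars at the group means of 3 kidneys. Zfp105 shows the tightest groups, and in Zfp551 and Zfp930 a mutant kidney overlaps the controls.

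The members lower in mutant kidneys with the smallest p were Zfp551, Zfp787, Zfp777, Zfp954, Zfp764, Zfp930, Zfp689 and Zfp747. Of these 7 have a KRAB-like motif and Zfp787 has none. Among members with an annotated protein 121 of 252 have it, and of the 8 higher members above only Zfp458 and Zfp947 do. In 6 of the 8 lower members all mutants lay below all controls, which the choice by smallest p favours. The exceptions were Zfp551 and Zfp930.

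Zfp777 (chromosome 6, 48024188 to 48048911, minus strand), a KRAB gene with 9 fingers whose exons overlap an antisense gene model, had the highest BPM of these. It read 70.7, 79.1 and 78.7 BPM in controls 5, 7 and 11 and 38.8, 37.4 and 64.9 BPM in mutants 6, 8 and 9. Mutants 6 and 8 stood at about the same low level and mutant 9 nearer to the controls. The log2 difference was -0.73 (SE 0.28, 95% interval -1.30 to -0.15; limma unadjusted p = 0.0143, adjusted p = 0.854), and -0.70 without control 11. Zfp787 (chromosome 7, 6131491 to 6155997, minus strand), with 7 fingers, no KRAB-like motif and exons that overlap another gene model on the same strand, read 26.3, 26.3 and 43.4 BPM in controls 5, 7 and 11 and 16.4, 20.3 and 8.68 BPM in mutants 6, 8 and 9. Its highest value was control 11 and its lowest mutant 9. The log2 difference was -1.07 (SE 0.41, 95% interval -1.90 to -0.24, limma unadjusted p = 0.0130, adjusted p = 0.854). It was -0.84 without control 11 and -0.74 without mutant 9.

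Zfp551 (chromosome 7, 12415153 to 12422751, minus strand) read 17.8, 11.1 and 7.60 BPM in controls 5, 7 and 11 and 0.164, 1.31 and 10.6 BPM in mutants 6, 8 and 9. Mutants 6 and 8 were far below the controls while mutant 9 lay within their range. The log2 difference was -1.99 (SE 0.72, limma adjusted p = 0.835), and ranged from -1.27 without mutant 6 to -2.93 without mutant 9. Zfp930, a KRAB gene on chromosome 8, read 27.3, 30.1 and 13.4 BPM in the controls and 5.15, 18.2 and 17.5 BPM in the mutants, with control 11 below mutants 8 and 9, and its log2 difference of -0.84 was -0.30 without mutant 6.

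Zfp764, Zfp689 and Zfp747 are KRAB genes that lie together on chromosome 7 (127372537 to 127449158). Zfp764 read 24.6, 22.7 and 17.95 BPM in the controls and 13.04, 7.53 and 17.7 BPM in the mutants. Zfp689 read 19.96, 9.31 and 10.5 BPM in the controls and 8.03, 3.28 and 8.59 BPM in the mutants, and an antisense gene model overlaps its exons. Zfp747 read 17.7, 23.3 and 30.2 BPM in the controls and 16.2, 13.1 and 14.9 BPM in the mutants. In each the lowest control was only slightly above the highest mutant, with log2 differences of -0.79, -0.91 and -0.63 (limma adjusted p = 0.887 to 0.896). Without mutant 8 Zfp764 was at -0.48 and Zfp689 at -0.54, and Zfp689 was at -0.60 without control 5. Zfp747 was at -0.44 without control 11. Zfp688, a further member with a KRAB-like motif, lies between Zfp764 and Zfp689 and went the other way. It read 2.27, 0.742 and 1.76 BPM per kilobase in the controls and 2.63, 2.04 and 3.01 in the mutants. Its ratio of mutant to control in the authors' deposited table was 1.61, with an unadjusted p of 0.142. Zfp954, in another chromosome 7 cluster, had a log2 difference of -0.81, or -0.55 without control 7.

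Promoters of members that separated the groups are shown to let the start regions of higher and lower genes be read side by side. These are the 250 bases before the gene start from RefSeq (GRCm38.p6, 5′ to 3′ on the gene's strand), and capitals mark, on either strand, the GC box (GGGCGG), the box written CCAAT, the core read by ETS factors (CGGAAG), the TATA box (TATAAA) or the longer element described further on (ACTACAATT). The RefSeq start can differ from the gene model whose coordinates are given above. The window of Zfp777 lies inside its gene model, and those of Zfp105 and Zfp787 reach into theirs. Matches of the GC box may overlap each other. The first pair were higher and the second pair lower in mutant kidneys.
Zfp105 (chr9:122922828-122923077, plus strand): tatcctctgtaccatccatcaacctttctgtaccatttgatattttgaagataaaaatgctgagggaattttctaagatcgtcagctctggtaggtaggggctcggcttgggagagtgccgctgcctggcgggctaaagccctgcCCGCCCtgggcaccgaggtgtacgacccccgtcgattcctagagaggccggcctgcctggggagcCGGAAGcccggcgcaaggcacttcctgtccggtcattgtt
Zfp281 (chr1:136624651-136624900, plus strand): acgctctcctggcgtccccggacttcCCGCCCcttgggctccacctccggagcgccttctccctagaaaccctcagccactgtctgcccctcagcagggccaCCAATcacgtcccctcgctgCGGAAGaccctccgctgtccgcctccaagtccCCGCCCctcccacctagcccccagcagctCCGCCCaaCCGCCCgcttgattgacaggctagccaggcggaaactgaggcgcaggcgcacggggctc
Zfp777 (chr6:48047795-48048044, minus strand): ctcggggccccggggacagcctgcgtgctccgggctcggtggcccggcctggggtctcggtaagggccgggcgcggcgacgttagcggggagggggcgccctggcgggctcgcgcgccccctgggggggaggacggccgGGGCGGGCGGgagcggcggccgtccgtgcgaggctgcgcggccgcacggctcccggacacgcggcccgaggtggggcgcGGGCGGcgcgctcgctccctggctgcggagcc
Zfp787 (chr7:6155966-6156215, minus strand): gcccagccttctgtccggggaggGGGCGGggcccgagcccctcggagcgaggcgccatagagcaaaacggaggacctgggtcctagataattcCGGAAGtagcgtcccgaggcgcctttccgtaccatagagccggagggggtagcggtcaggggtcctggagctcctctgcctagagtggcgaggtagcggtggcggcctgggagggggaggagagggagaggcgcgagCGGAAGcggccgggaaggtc

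The upstream bases of Zfp105, Zfp281, Zfp777 and Zfp787 held 14, 19, 42 and 22 CG dinucleotides, and each held at least 1 GGGCGG, the GC box that Sp1-type factors read. Over the 300-base windows (250 before to 50 after the start) of 213 members with a RefSeq promoter, the median number of CG dinucleotides was 16, against 7 over 27025 genes. GGGCGG was present in 48.8% of member windows and 35.9% of all windows, CCAAT in 47.9% and 37.9%, and the ETS core CGGAAG in 38.5% and 17.2%. TATAAA was present in 5.63% and 14.2%. These shares are descriptions. All windows include noncoding genes and were not limited to genes covered in these kidneys, while every member was covered. The part of that choice in the differences was not tested.

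ACTACAATT, the opening of an extended element bound by ZNF143 (the human counterpart of Zfp143, itself a member), was present in 7 member windows (3.29%) and in 0.433% of all windows. The 7 genes were Zfp108, Zfp111, Zfp128, Zfp180, Zfp454, Zfp692 and Zfp933, and 3 of them on chromosome 7 that hold it in the stretch nearest the start are shown. It lies there on the opposite strand, so its capitals read as the reverse complement. Zfp111, also on chromosome 7, held it on the gene's own strand at the far end of its window, which lies inside its gene model.
Zfp108 (chr7:24254544-24254793, plus strand): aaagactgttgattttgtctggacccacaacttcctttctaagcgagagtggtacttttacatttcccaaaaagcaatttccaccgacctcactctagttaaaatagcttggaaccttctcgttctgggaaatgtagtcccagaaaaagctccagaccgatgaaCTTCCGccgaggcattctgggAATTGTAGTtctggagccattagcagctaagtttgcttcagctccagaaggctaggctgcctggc
Zfp180 (chr7:24081647-24081896, plus strand): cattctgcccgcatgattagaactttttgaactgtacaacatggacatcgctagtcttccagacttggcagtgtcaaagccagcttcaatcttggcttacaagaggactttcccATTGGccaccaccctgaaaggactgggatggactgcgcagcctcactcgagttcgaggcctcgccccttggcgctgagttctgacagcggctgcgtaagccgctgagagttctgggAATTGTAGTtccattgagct
Zfp128 (chr7:12880928-12881177, plus strand): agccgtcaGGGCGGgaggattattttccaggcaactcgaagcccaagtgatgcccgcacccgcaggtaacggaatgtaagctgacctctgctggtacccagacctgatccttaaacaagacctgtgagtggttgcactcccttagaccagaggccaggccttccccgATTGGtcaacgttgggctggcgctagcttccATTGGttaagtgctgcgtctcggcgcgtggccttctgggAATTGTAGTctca

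The groups overlapped for all 7 of these genes, and over all genes only 6.10% were higher and 5.12% lower with no overlap. The log2 differences of the 7 ran from -0.15 (Zfp692) to 0.35 (Zfp454 and Zfp933). Without control 11 they ran from -0.59 (Zfp692) to 0.36 (Zfp454). Zfp143, an activator of small nuclear RNA and many housekeeping promoters, read 46.2, 39.5 and 22.7 BPM in the controls and 39.9, 26.8 and 31.9 BPM in the mutants with a log2 difference of -0.09 (limma adjusted p = 0.983).

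By domain, a gap between members with and without a KRAB-like motif was present only with control 11 included, and it was not tested. The motif (a pattern of the KRAB A box) was found in the translated longest coding sequence of 121 members and was not found in 131. For 7 members no protein was at hand. Of these, 5 symbols were not found by name in the annotation, which may hold them under other names. Zfp783 and Zfp939 are pseudogenes there. Members with the motif had a median log2 difference of 0.23, with 88 of 121 above 0, and those without it 0.11, with 83 of 131 above 0. Without control 11 these medians were 0.03 and 0.04, with 65 of 121 and 71 of 131 above 0. The pattern found no match in the chromosome 7 cluster of Zfp235 and may miss KRAB domains with other residues. Finger number ranged from 0 to 36 with a median of 10. The 48 members with 15 or more fingers had a median difference of 0.27 (0.04 without control 11) and the 32 with 1 to 4 fingers 0.09 (0.11 without it).

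The KRAB corepressor machinery showed no call. Of 28 genes of that list that were tested, 0 passed in either direction and 0 had an unadjusted p below 0.05, with a median of 0.13 and 17 above 0 (0.07 and 19 without control 11). Trim28, the corepressor itself, read 269, 242 and 466 BPM in controls 5, 7 and 11 and 283, 329 and 368 BPM in mutants 6, 8 and 9. Control 11 was the highest of the 6, and the log2 difference was 0.06 with all kidneys and 0.35 without it. Setdb1, which writes H3K9 trimethylation, read 165, 198 and 126 BPM in the controls and 219, 234 and 166 BPM in the mutants (log2 difference 0.35, limma adjusted p = 0.896; 0.18 without control 11). Chd3, the NuRD subunit that TRIM28 binds, had a log2 difference of 0.28 (0.16 without control 11), Sumo2 0.42 (0.20) and Hdac2, a deacetylase of NuRD, 0.31 (0.11).

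Among members known for silencing, 0 of 5 passed the test, and 4 of 5 log2 differences were above 0 (2 of 5 without control 11). Zfp809, which silences retroviruses that use the proline tRNA primer site, read 12.4, 17.3 and 13.7 BPM in controls 5, 7 and 11 and 25.6, 13.4 and 6.70 BPM in mutants 6, 8 and 9. The mutants spanned the controls on both sides (log2 difference -0.10; values in brackets after the other genes here are log2 differences too). Zfp568, the repressor of a placental Igf2 transcript, read 84.7, 160.2 and 125 BPM in the controls and 145, 169 and 156 BPM in the mutants, and only its control 7 lay inside the mutant range (0.39, and 0.14 without control 5). Zfp445, which keeps imprints together with Zfp57, read 246, 316 and 160.3 BPM in the controls and 259, 242 and 232 BPM in the mutants, with control 11 lowest (0.07, and -0.19 without it).

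Zfp708, a silencing gene of chromosome 13 in which the KRAB-like pattern was not found, read 4.83, 4.32 and 5.55 BPM in controls 5, 7 and 11 and 24.3, 6.34 and 9.27 BPM in mutants 6, 8 and 9. All mutants lay above all controls, mutant 6 most of all, for a log2 difference of 1.08 (limma adjusted p = 0.887) that fell to 0.56 without mutant 6. Its exons overlap those of Rslcan18 on the same strand. Zfp932, which binds endogenous retroviruses in mouse, read 11.5, 32.9 and 7.83 BPM in the controls and 29.9, 12.4 and 10.6 BPM in the mutants, and its sign depended on the kidneys included (0.12, or -0.29 without control 11). Zfp819, the sixth gene of this list, was covered in 1 library only and is no member.

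Developmental regulators had 5 of 7 log2 differences (in brackets) above 0, or 4 of 7 without control 11. The groups overlapped in 7 of 7, and over all genes only 6.10% were higher and 5.12% lower with no overlap. Zfp423, a partner of SMAD and EBF factors whose human counterpart is mutated in nephronophthisis, read 34.7, 55.2 and 26.6 BPM in controls 5, 7 and 11 and 36.7, 53.6 and 66.1 BPM in mutants 6, 8 and 9 (0.44, and 0.21 without control 11). Its relative Zfp521 read 84.9, 105 and 84.1 BPM in the controls and 98.3, 119 and 109.6 BPM in the mutants (0.26), with mutant 6 inside the control range. Zfp536, a regulator of neuronal differentiation, read 6.74, 17.3 and 14.3 BPM in the controls and 13.7, 24.2 and 36.99 BPM in the mutants (0.90, and 0.53 without control 5), with mutant 6 inside the control range. The paired repressors Zfp503 and Zfp703 had log2 differences of -0.07 and -0.50, the latter -0.12 without control 5. Zfp462 read 86.6 BPM in control 11 and 164 to 193 BPM in the other kidneys, for a difference of 0.22 (-0.15 without control 11), and Zfp516, a regulator of brown fat, had a difference of 0.06.

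General activators and stem cell factors of the family, among them Zfp281, Zfp148 and Zfp143 described above, held 6 of 7 log2 differences above 0, or 4 of 7 without control 11. Zfp384 read 25.9, 26.8 and 22.96 BPM in controls 5, 7 and 11 and 36.9, 32.8 and 43.1 BPM in mutants 6, 8 and 9. All mutants exceeded all controls, with a log2 difference of 0.55 (limma adjusted p = 0.894) and an antisense gene model over its exons. Zfp292 read 271, 313 and 112 BPM in the controls and 264, 286 and 297 BPM in the mutants. Control 11 was far below every other kidney, and the difference of 0.41 became -0.05 without it. Zfp217 (0.09) and Zfp335 (0.21) overlapped between groups.

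Members that act on RNA, ribosomes, the spindle or SUMO had log2 differences between -0.29 (Zfp830) and 0.24 (Zfp346). Without mutant 9 these 2 were at -0.10 and 0.03. The groups overlapped in 8 of 8, and over all genes only 6.10% were higher and 5.12% lower with no overlap. Zfp106, an RNA-binding protein, read 286, 356 and 353 BPM in controls 5, 7 and 11 and 333, 364 and 347 BPM in mutants 6, 8 and 9. Zfp207 read 293, 293 and 208 BPM in the controls and 299, 236 and 319 BPM in the mutants, lowest in control 11. These 2 had log2 differences of 0.07 and 0.11. Zfp598, the ligase that marks collided ribosomes, was at 0.16, Zfp622, a factor of 60S maturation, at 0.18, Zfp451, a SUMO ligase, at -0.05 and Zfp326 at 0.05.

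Members grouped in 18 genomic runs (at least 4 3-digit Zfp symbols with neighbouring starts within 500 kb), which held 121 members. Their median difference was 0.15, against 0.12 for the 138 members outside runs, and 0.03 for both without control 11. The run of chromosome 13 from 67038596 to 67827002 (14 members, Zfp458, Zfp459 and Zfp708 among them) had a median of 0.31, or 0.07 without control 11. It held 3 of 14 members that were higher and 0 that were lower with no overlap, against 6.10% and 5.12% of all genes, and its differences ran from -1.08 to 1.49. The run of chromosome 17 from 21008903 to 22867134 (13 members, all with a KRAB-like motif, Zfp947 among them) had 11 of 13 above 0 and a median of 0.33, but -0.07 with 6 of 13 above 0 without control 11.

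The run of chromosome 7 from 127233061 to 127885996 (10 members, with Zfp689, Zfp747 and Zfp764) lay below 0. Its median was -0.34, with 4 of 10 above 0, and -0.27 with 3 of 10 above 0 without control 11. It held 3 of 10 members lower and 1 higher with no overlap, against 5.12% and 6.10% of all genes. These runs were singled out after their values were seen. The 4 members of the chromosome 10 run (81704825 to 82241280), Zfp433, Zfp781, Zfp873 and Zfp938, were all above 0, at a median of 0.64 and, without control 11, of 0.69 with 3 of 4 above 0. On any chromosome, 3 pairs of members had near-identical proteins (Zfp110 with Zfp369, Zfp455 with Zfp456 and Zfp808 with Zfp934, at 84.8%, 90.8% and 92.4% of aligned residues), of which only Zfp455 and Zfp456 share a run, so coverage may be split between partners and their single values are uncertain.

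**Figure D5:**
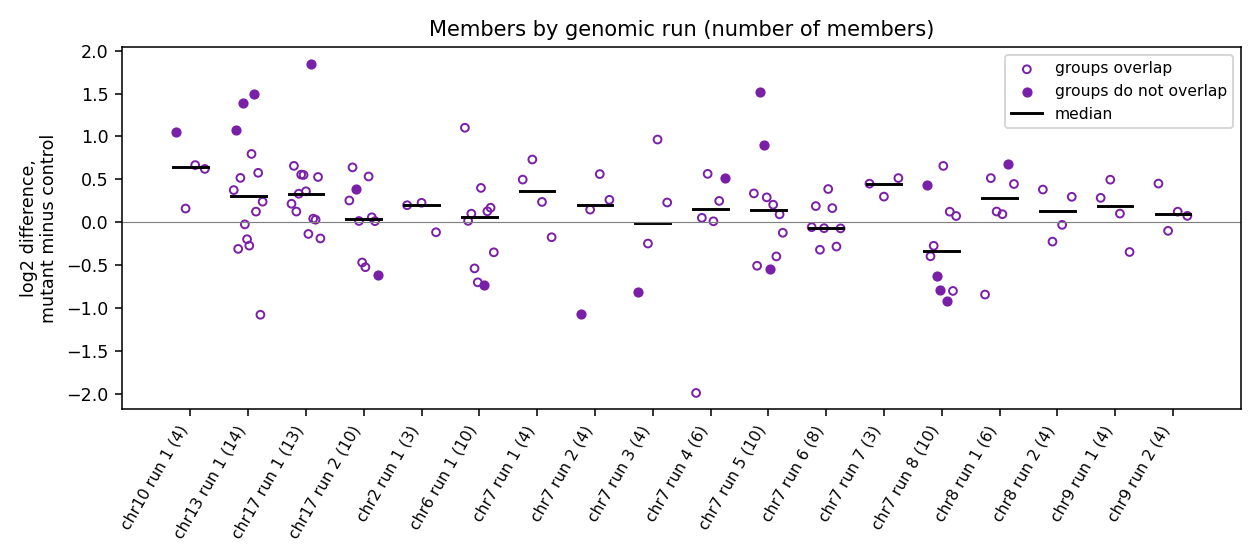
Log2 difference, mutant minus control, of the members in each of 18 genomic runs, named by chromosome and order, with the number of members in brackets. Filled points are members whose groups do not overlap and bars are medians, from 0.64 in the chromosome 10 run to -0.34 in the eighth run of chromosome 7.

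Marker lists of the cells in a kidney also differed between libraries. The summed level of 10 proximal tubule genes was 5783 to 7197 BPM in control and 3471 to 5054 BPM in mutant kidneys. For 8 stroma genes it was 2648 to 3132 and 3105 to 3744 BPM, and for 8 collecting duct genes 476 to 523 and 599 to 652 BPM. The sum of 10 cell cycle genes was 1599 BPM in control 11 and 2113 to 2405 BPM in the other 5 kidneys, so it was low in the library in which the members were low. Muscle genes summed to 343 BPM in mutant 9 and 5.50 to 15.03 BPM elsewhere, with Myog at 0 throughout. Erythroid, endothelial and immune genes overlapped between the groups, at 1061.6 to 1473, 829 to 1116 and 86.2 to 101 BPM in control and 1041 to 1929, 973 to 999 and 78.2 to 103 BPM in mutant kidneys. Podocyte genes summed to 1040.3 to 1559 BPM in control and 958 to 1094 BPM in mutant kidneys, nephron progenitor genes to 756 to 854 and 767 to 830 BPM. Neuron and Schwann cell genes summed to at most 21.6 BPM with Th at 0, and adrenal and gonad genes to at most 3.84 BPM with Cyp21a1, Insl3 and Dazl at 0. The part of these cell types in the members' levels was not tested.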

How the data were processed

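RNA of 3 control and 3 mutant mouse kidneys at embryonic day 17 was column purified with DNase, depleted of ribosomal RNA and sequenced from an Ion Total RNA-seq kit, as the labels' protocols state. The tool bedtools and the build mm10 are named per the submitters' processing notes, while aligner, annotation and filters are not named there. The deposited signal is coverage per gene: covered bases plus 1, times a factor per library that gives every library the same total, with no division by length. This was read from the values, since 100% of values were whole multiples of the column minimum (tolerance 0.001). The deposited ratio is the authors' mutant mean over control mean, and the deposited p-value is unadjusted.

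Covered bases were recovered and scaled to 1e+06 per library (BPM). A gene needed 1 BPM or more in 3 or more libraries, and genes were compared as log2(BPM + 1) in limma 3.58.1 (R 4.3.3; trend and robust options, no covariate, two-sided, Benjamini-Hochberg over 13977 genes), so fold changes of low genes are understated. The fit was tested on simulated data. Gene models came from GENCODE M21 (mm10), in which 254 of 259 members were found by symbol. Other names were not searched there, so the remaining members may be held under another name. The planned RefSeq proteins were not used here; coding sequences of that annotation were translated instead. A finger is C, 2 or 4 residues, C, 12 residues, H, 3 to 5 residues, H. The KRAB-like motif is W, 2 residues, L, 3 residues, Q, 2 residues, LY, 2 residues, VM, with 1 mismatch allowed after W. Near-identical pairs had at least 80% identity over at least 80% of the shorter protein in blastp 2.17.0.

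Named members are, by rule, the 8 with the smallest p in each direction, the 6 highest per kilobase, role lists and those nearest the edge of the rule; promoters shown, runs and motif genes singled out were chosen after their values were seen. Members and lists were chosen with earlier results of these data known. One listed gene, and RefSeq windows for some members, are not analysed here. Alternatives covered scaling, filters, pseudocount, limma options, sample weights and libraries left out.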

Additional observations from a re-analysis of the deposited data

How the results depend on the processing

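No member passed limma's adjusted threshold under any of the 14 alternatives run. The count of members above 0, 173 (66.8%) in the main analysis, ranged from 138 (53.3%) to 182 (70.3%). It was lowest without control 11, where 49.2% of all genes lay above 0, and the same without both control 11 and mutant 6. The members' median was 0.10 to 0.13 under other scalings, filters, pseudocounts and limma options and under sample weights, and 0.03 to 0.23 with 1 library left out, lowest without control 11. Quantile normalization and median ratio scaling moved it to 0.11 and 0.10. Over all genes limma called 0 in the main analysis, 1 after quantile normalization, 1 without trend and robust options, 4 with sample weights, 19 without both control 11 and mutant 6, and 0 to 14 with 1 library left out (14 without control 11, 3 without mutant 8). Members at an unadjusted p below 0.05 numbered 8 to 16 higher and 1 to 7 lower over these alternatives.

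The 16 members named for their smallest p kept their direction in every alternative in which they were tested. Zfp947 was left out by the filter on a mean of 5 BPM. The choice by smallest p favours a kept direction, since groups that do not overlap cannot change sign when a library is left out. Many differences near 0 changed sign, and the cause was not tested. With sample weights the sign turned for Zfp445 (-0.039), Zfp932 (-0.15), Zfp326 (-0.072). Without both control 11 and mutant 6 it turned for Zfp266 (-0.11), Zfp207 (-0.095), Zfp422 (-0.14), Zfp445 (-0.23), Zfp932 (-0.72), Zfp462 (-0.15), Zfp217 (-0.092), Zfp335 (-0.11), Zfp326 (-0.34). With 1 library left out the log2 differences that took both signs ranged as follows: Zfp704 -0.24 to 0.011, Zfp932 -0.32 to 0.68, Zfp503 -0.28 to 0.13, Zfp143 -0.39 to 0.11, Zfp106 -0.028 to 0.13, Zfp451 -0.29 to 0.12, Zfp622 -0.096 to 0.45, Zfp653 -0.29 to 1.20, Zfp879 -0.053 to 1.07, Zfp146 -0.24 to 0.062, Zfp809 -0.55 to 0.35, Zfp516 -0.055 to 0.18, Zfp266 -0.026 to 0.23, Zfp207 -0.054 to 0.24, Zfp445 -0.19 to 0.30, Zfp462 -0.15 to 0.42, Zfp217 -0.13 to 0.23, Zfp292 -0.047 to 0.69, Zfp326 -0.15 to 0.19, Zfp422 -0.075 to 0.21, Zfp335 -0.020 to 0.46. No paired analysis was possible because the control and mutant groups share no replicate number. Read depth is unknown, and 3 kidneys a group limit the precision.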

Other observations

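X-linked members all lay above 0, a pattern singled out after its values were seen. The 5 X-linked members had a median log2 difference of 0.60, or 0.34 without control 11, with 5 of 5 above 0 both ways. The shares above 0 were 66.8% and 53.3% of all members and 52.6% and 49.2% of all genes tested. In 2 of the 5 all mutants exceeded all controls, as in 9.65% of all members and 6.10% of all genes. All 4 chromosome 10 members form the run described above. Of these, 4 of 4 were above 0 (median 0.64), and 3 of 4 were without control 11. On chromosome 14, by contrast, 0 of 4 members were above 0 (median -0.16), but 2 of 4 were without control 11.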
